A study of Fragaria x ananassa with 28 samples.

Results

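The microRNAs (miRNAs) miR160, miR167, miR390 and miR393 were followed in ripening strawberry fruit. They were taken from a table of 371 known miRNA names by the number in the name, and 13 names carried one of these numbers. A name counted as a member where it reached 10 RPM (reads scaled to library size) in at least 2 of the 14 small RNA libraries, which 6 of the 13 names and 165 of the 371 did. The 6 were miR160b, miR167d, miR167h-3p, miR393a, miR393b-5p and miR393-3p. The other 7 names (miR160a-3p, miR160d-3p, miR167f-3p, miR390a-5p, miR390b-5p, miR393a-3p and miR393b-3p) entered only the sums over all names of a number. Just inside the limit stood miR393a, with a second-highest value of 17.7 RPM, and just outside it miR390a-5p, with 6.11 RPM.

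Fruit of 'Toyonoka', an octaploid cultivar of Fragaria × ananassa, received 100 µL of solution into the receptacle core through the stalk 2 weeks after flowering. The receptacle is the fleshy part of the fruit. The groups were fruit given 1 µM abscisic acid (ABA, a hormone that promotes strawberry ripening) and taken at day 5 and day 8, fruit given 100 µM nordihydroguaiaretic acid (NDGA, which the labels call a blocker of ABA synthesis and which also inhibits lipoxygenases) at day 5 and day 8, and fruit given water at days 0, 5 and 8. Each of the 7 groups had 2 small RNA and 2 mRNA libraries. Per the labels, each group's RNA was an equal mix from 10 fruits. The replicates may therefore be technical, and a p-value here covers no more than the variation among libraries. No group without injection was analysed here, and in such bulk samples fewer cells of a type and less RNA per cell cannot be told apart.

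In plants these miRNAs act on successive steps of the response to auxin, a growth hormone that delays strawberry ripening. As known from Arabidopsis, miR393 targets the F-box auxin receptors TIR1 and AFB, and miR160 and miR167 target separate groups of auxin response factors (ARFs), the transcription factors that bind auxin-responsive genes. miR390 acts one step removed: with the protein AGO7 it starts the production of small tasiRNAs from the TAS3 transcript, which in turn target ARF2, ARF3 and ARF4. A name ending in 5p or 3p denotes the arm of the hairpin precursor from which the small RNA is cut. No mature sequence is printed for any name.

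The small RNA libraries held 12678630 to 21151809 clean reads and 1556032 to 3395145 reads on known names. Values above 0 began at 7 to 13 reads, so a name listed at 0 may still have had a few reads. In 12 libraries the deposited RPM was relative to the clean reads. In NDGA day 8 replicate 2 and water day 5 replicate 2 it was relative to smaller totals, 28.1% and 44.2% of the clean reads, and these 2 libraries were used as deposited. They were also closest to each other (Pearson r of log2 values of 0.857), whereas their own replicates correlated with them at 0.689 and 0.738. Of the 14 libraries, 8 were closest to their own replicate, and the NDGA and water day 5 libraries were not. In the mRNA libraries the receptacle markers (expansin-A, pectate lyase and major allergen transcripts, 108 of 225 tested) took on average 0.277% of summed RPKM (reads scaled to transcript length and library size) in ABA and 0.853% in NDGA fruit at day 5, 0.223% and 0.404% in ABA and NDGA fruit at day 8, and 0.397%, 0.362% and 0.716% in water fruit at days 0, 5 and 8. Over the libraries they took 0.22% to 0.855%, and the xylem markers 0.0225% to 0.0704%. The achene (seed) markers, of which 69 of 142 were tested, took on average 0.0134% in ABA and 0.0142% in NDGA fruit at day 5, 0.00737% and 0.0126% in ABA and NDGA fruit at day 8, and 1.85%, 0.467% and 0.0208% in water fruit at days 0, 5 and 8.

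The 4 numbers together took 0.207% to 0.722% of the reads on known names. Most of that was miR167, at 493 to 1265 RPM, against 15.6 to 47.3 RPM for the sum of miR393 names, 10.9 to 48.2 RPM for miR160 and 0 to 6.31 RPM for miR390. All calls among single names were of miR393. Which of its names were above 0 differed from library to library. No sum per number passed the test in any of 9 comparisons.

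miR393-3p was listed at 0 in both ABA libraries at day 5 and in both at day 8. In NDGA fruit it had 19.4 and 23.9 RPM at day 5 and 8.83 and 23.9 RPM at day 8. In water fruit it had 12.4 and 10.7 RPM at day 0, 0 in both libraries at day 5, and 21.7 and 27.3 RPM at day 8. Every NDGA library and every water library of days 0 and 8 was thus above 0, and every ABA library and both water libraries of day 5 were at 0, with no overlap.

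miR393-3p was lower in ABA than in water fruit at day 8 (limma with Benjamini-Hochberg adjustment over 165 names, adjusted p = 2.36e-04) and lower in ABA than in NDGA fruit at day 5 (adjusted p = 3.11e-04) and day 8 (adjusted p = 4.97e-04). It was higher in NDGA than in water fruit at day 5 (limma adjusted p = 5.19e-04). In water fruit it was lower at day 5 than at day 0 (limma adjusted p = 0.00123) and higher at day 8 than at day 5 (limma adjusted p = 3.93e-04). No fold change is given where a group was listed at 0. miR393-3p passed the 10 RPM limit only through the groups where it was high. Its groups at 0 in both libraries added no spread to the fit. On the log2 scale its standard error was 0.46, against 1.09 for miR393a and 1.07 for miR393b-5p. The p-values of miR393-3p may thus be too small. In fits of the compared groups alone, the calls of NDGA against water at day 5 (limma adjusted p = 0.0738) and of ABA against NDGA at day 8 (limma adjusted p = 0.0719) were lost.

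In the 6 libraries where miR393-3p was at 0, another name of the same arm was above 0. In ABA fruit, miR393a-3p had 1.96 RPM in replicate 1 and miR393b-3p 2.70 RPM in replicate 2 at day 5, and miR393a-3p had 0.906 and 0.994 RPM at day 8. In water fruit of day 5, miR393a-3p had 0.943 and 7.13 RPM. In the other 8 libraries both of these names were at 0. The 3 names ending in 3p summed to 0.906 to 7.13 RPM in those 6 libraries and to 8.83 to 27.3 RPM in the other 8. In those 8 libraries the sum was miR393-3p alone, and the 6 were picked by that name being at 0. The lower sum in the 6 is therefore in part fixed by the split. The sum was formed after the values were seen and is a description with no test.

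The remaining pair of names, miR393a and miR393b-5p, alternated completely. Exactly 1 of the 2 was above 0 in each of the 14 libraries. miR393a carried the value in both ABA libraries of day 5 (19.4 and 12.9 RPM), in replicate 2 of ABA at day 8 (17.7 RPM) and in both water libraries of day 8 (10.8 and 9.87 RPM). miR393b-5p carried it in replicate 1 of ABA at day 8 (15.6 RPM), in NDGA fruit (27.9 and 17.2 RPM at day 5, 17.98 and 21.3 RPM at day 8) and in water fruit of day 0 (8.44 and 6.42 RPM) and day 5 (20.5 and 19.8 RPM). The ABA replicates of day 8 were therefore split, one with each name. The sources used here do not give how reads were assigned among names of one number. For either name alone, a difference in level therefore cannot be told apart from a difference in which name the reads were given.

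The value listed under miR393b-5p was lower in ABA than in water fruit at day 5 (limma adjusted p = 0.0333) and lower in ABA than in NDGA fruit at day 5 (limma adjusted p = 0.035), with both ABA libraries at 0. For miR393a, at 0 in NDGA and water fruit of day 5, the adjusted p of both comparisons was 0.0503 by limma, short of 0.05. The miR393b-5p call against water was lost in 9 of 14 fits that left out 1 library (limma adjusted p = 0.0522 to 0.171), namely without any one of the 6 water libraries, either ABA library of day 5, or NDGA day 8 replicate 1. The call against NDGA was lost in 10 of 14 (limma adjusted p = 0.0515 to 0.185), without any one of the 6 water libraries or of the ABA or NDGA libraries of day 5. Without the 2 libraries of smaller totals the adjusted p was 0.168 against water and 0.0703 against NDGA by limma, and with them rescaled to their clean reads the first was 0.104. The call against NDGA was also lost with quantile normalization (limma adjusted p = 0.0844), and that against water with no filter (0.0561).

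Added up, miR393a and miR393b-5p were never at 0. The pair had 19.4 and 12.9 RPM in ABA fruit of day 5, 15.6 and 17.7 RPM in ABA fruit of day 8, 27.9 and 17.2 RPM in NDGA fruit of day 5, and 17.98 and 21.3 RPM in NDGA fruit of day 8. Water fruit had 8.44 and 6.42 RPM at day 0, 20.5 and 19.8 RPM at day 5, and 10.8 and 9.87 RPM at day 8. The 2 water libraries of day 0 were the lowest of the 14 and those of day 8 the next lowest. At day 5 both ABA libraries were below both water libraries, although the higher ABA library (19.4 RPM) was close to the lower water library (19.8 RPM). This sum too was formed after the values were seen.

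**Figure D1:**
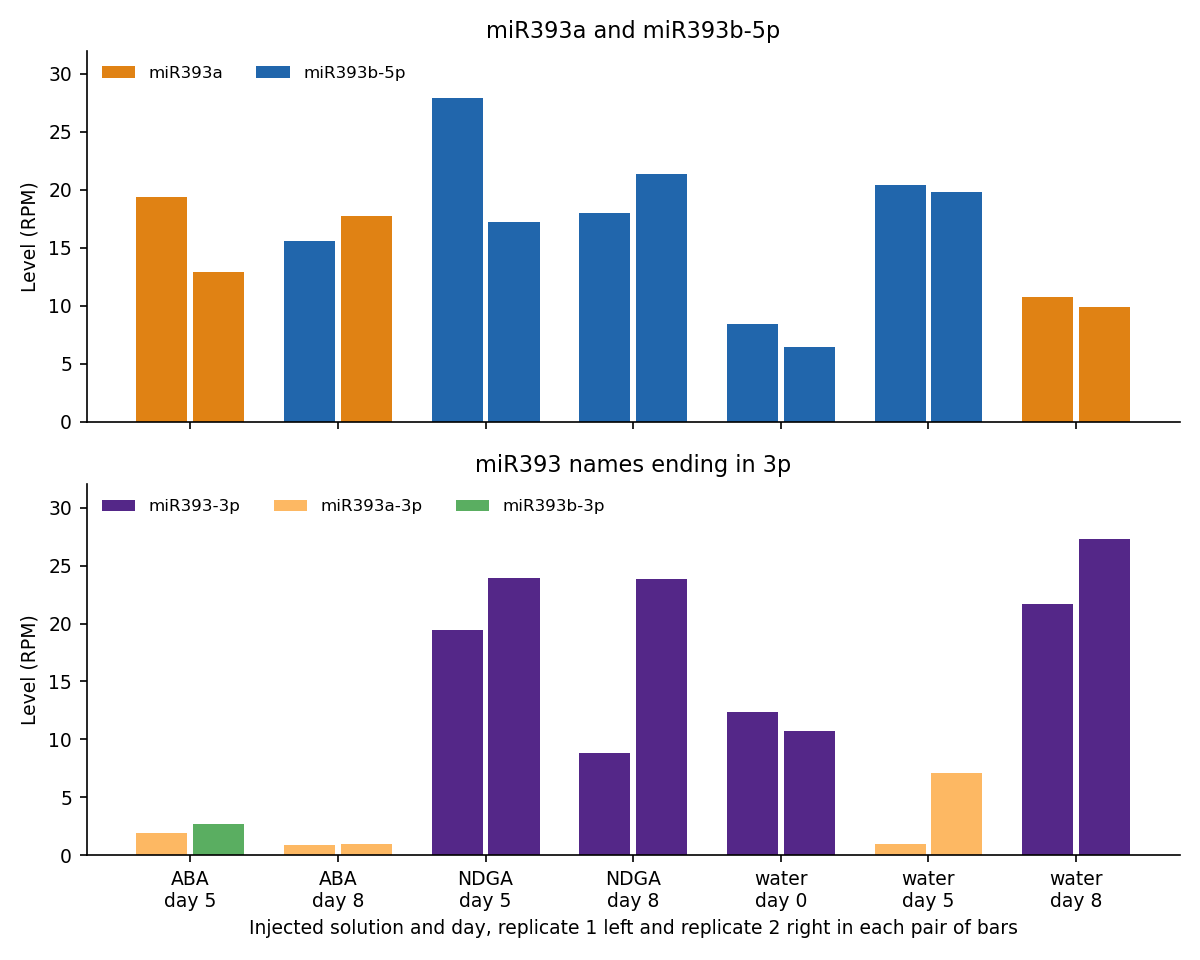
Levels (RPM) of the miR393 names in each of the 14 small RNA libraries, with the bars of a library stacked by name: miR393a and miR393b-5p above, the 3 names ending in 3p below. One of miR393a and miR393b-5p was above 0 in every library, and miR393-3p was at 0 in the 4 ABA libraries and in both water libraries of day 5.

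The sum of all 5 miR393 names was 21.3 and 15.6 RPM in ABA fruit of day 5 and 16.5 and 18.7 RPM in ABA fruit of day 8. In NDGA fruit it was 47.3 and 41.2 RPM at day 5 and 26.8 and 45.2 RPM at day 8, and in water fruit 20.8 and 17.1 RPM at day 0, 21.4 and 26.9 RPM at day 5, and 32.5 and 37.2 RPM at day 8. Ordered by mean, the groups ran ABA day 8 (17.6 ± 1.57 RPM, SD, n = 2 as for each group), ABA day 5 (18.5 ± 4.05 RPM), water day 0 (19.0 ± 2.62 RPM), water day 5 (24.2 ± 3.89 RPM), water day 8 (34.8 ± 3.33 RPM), NDGA day 8 (36.0 ± 12.998 RPM) and NDGA day 5 (44.2 ± 4.38 RPM). The 3 lowest groups overlapped one another, as did NDGA day 8 with its neighbour on either side, whereas water day 5 overlapped neither water day 0 nor water day 8. The parts of this sum went opposite ways in ABA against water fruit at day 8. There miR393a plus miR393b-5p had 15.6 and 17.7 RPM in ABA and 10.8 and 9.87 RPM in water fruit. The names ending in 3p had 0.906 and 0.994 RPM in ABA and 21.7 and 27.3 RPM in water fruit.

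For the miR393 sum the difference closest to the threshold was that of ABA against NDGA at day 5, a log2 change of -1.23 ± 0.34 (SE; limma adjusted p = 0.0536 over 136 numbers). The 2 groups did not overlap. The sum changed by -0.95 ± 0.34 on the log2 scale in ABA against NDGA fruit at day 8 (limma adjusted p = 0.118), by -0.94 ± 0.34 in ABA against water fruit at day 8 (limma adjusted p = 0.183) and by 0.85 ± 0.34 in NDGA against water fruit at day 5 (limma adjusted p = 0.431). At day 8 against day 0 in water fruit it changed by 0.85 ± 0.34 (limma adjusted p = 0.296). Each of these differences had an unadjusted p below 0.05. By limma's voom on recovered reads, added after the data were seen, the sum was called in ABA against NDGA at day 5, as it was with a pseudocount of 5 RPM and without the 2 libraries of smaller totals. Of the 14 fits that left out 1 library, only 2 called the sum in ABA against NDGA at day 5. These were the fits without NDGA day 8 replicate 1 or replicate 2. Its log2 change at day 5 ranged over -1.44 to -1.02 in the 14 fits. Without NDGA day 8 replicate 1 the sum was called in ABA against NDGA at day 8 as well, in 1 of 14 fits.

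miR160, whose known targets include ARF10, ARF16 and ARF17, was carried by miR160b, which made up 81.0% to 100% of its sum. miR160b had 15.9 and 10.1 RPM in ABA fruit of day 5 and 12.8 and 15.3 RPM in ABA fruit of day 8. It had 39.6 and 16.6 RPM in NDGA fruit of day 5, 42.4 and 19.5 RPM in NDGA fruit of day 8, and in water fruit 14.1 and 12.1 RPM at day 0, 23.5 and 47.8 RPM at day 5, and 10.9 and 12.7 RPM at day 8. All 6 libraries of the NDGA and water day 5 groups were at 16.6 RPM or above, and the other 8 were at 15.9 RPM or below. This split was drawn after the values were seen, and the libraries next to it overlapped by counting error. The Wilson interval was 14.7 to 18.8 RPM for the NDGA library of day 5 at 16.6 RPM. For the ABA library of day 5 at 15.9 RPM it was 14.0 to 18.1 RPM.

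In 3 groups the replicates of miR160b lay far apart. In water fruit of day 5 the 95% Wilson intervals, which cover counting error alone, were 21.1 to 26.2 RPM and 42.7 to 53.6 RPM, and in NDGA fruit of day 8 they were 39.2 to 45.8 RPM and 16.2 to 23.4 RPM. In both groups the library of the smaller total was among the 2, as the higher one in water and the lower one in NDGA fruit. The sum of miR160 names did not pass in any comparison. Its changes were -1.32 ± 0.53 on the log2 scale at day 8 against day 5 in water fruit (limma adjusted p = 0.276), 1.30 ± 0.53 in NDGA against water fruit at day 8 (limma adjusted p = 0.206), -1.23 ± 0.53 in ABA against water fruit at day 5 (limma adjusted p = 0.267) and 1.11 ± 0.53 at day 5 against day 0 in water fruit (limma adjusted p = 0.245).

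The total of all known names also differed between these libraries. It was 107836 to 192285 RPM in the ABA libraries, 175107 to 318465 RPM in the NDGA libraries, and 97954 to 123115, 214536 to 277799 and 118553 to 153606 RPM across the water libraries of days 0, 5 and 8. As a share of the reads on known names, miR160 ranged over 0.00782% to 0.0107% in the ABA, 0.00733% to 0.0243% in the NDGA and 0.00921% to 0.0172% in the water libraries, so that the groups overlapped. In both NDGA groups the library with the larger total of known names had the lower miR160 level. In every ABA and water group it had the higher level. The part of the total in the miR160 result was not tested.

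**Figure D2:**
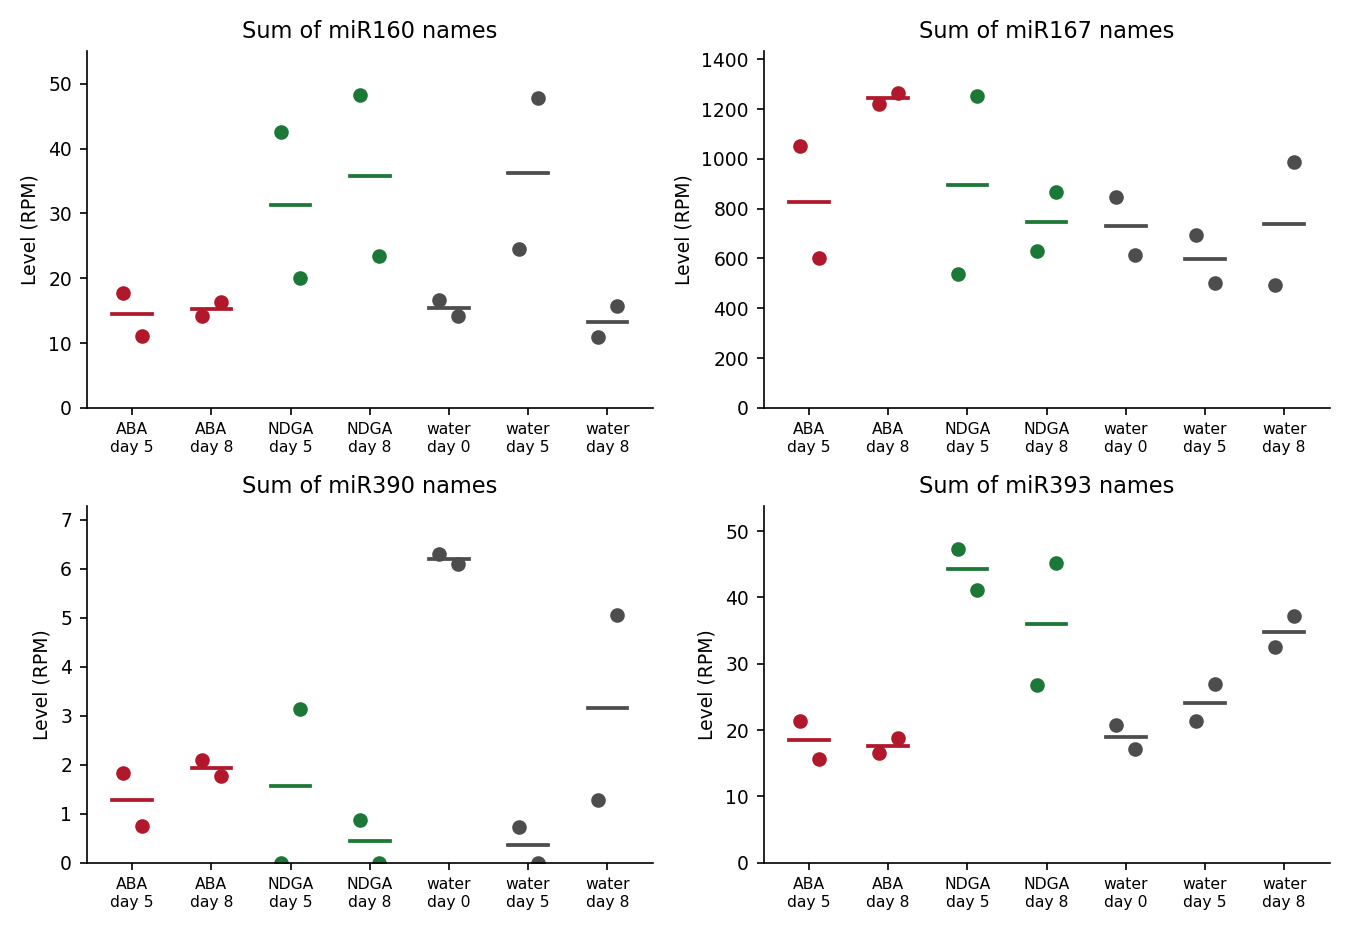
Level (RPM) of the sum over all names of miR160, miR167, miR390 and miR393 in each library (points, replicate 1 left) with the group mean (lines), for ABA, NDGA and water fruit by day. The miR160 replicates lay farthest apart in the NDGA and water day 5 groups, miR393 was lowest in ABA fruit and water fruit of day 0, and miR390 was highest in water fruit of day 0.

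miR167, whose known targets are ARF6 and ARF8, was the most abundant of the 4, and miR167d made up 96.9% to 99.2% of its sum. miR167d had 1045 and 599 RPM in ABA fruit of day 5 and 1212 and 1252 RPM in ABA fruit of day 8. In NDGA fruit it had 521 and 1217 RPM at day 5 and 614 and 847 RPM at day 8, and in water fruit 833 and 604 RPM at day 0, 676 and 487 RPM at day 5, and 482 and 971 RPM at day 8. The 2 ABA libraries of day 8 were above all libraries except NDGA day 5 replicate 2, which lay between them, while the replicates of several other groups differed about as much as the groups did.

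The sum of miR167 names was 1243 ± 31.1 RPM in ABA fruit of day 8, 748 ± 169 RPM in NDGA fruit of day 8 and 740 ± 350 RPM in water fruit of day 8 (SD, n = 2 each). None of its differences passed the test. The largest change was 0.83 ± 0.50 on the log2 scale in ABA against water fruit at day 8 (limma adjusted p = 0.498), followed by 0.75 ± 0.50 in ABA against NDGA fruit at day 8 (limma adjusted p = 0.429). At day 5 the changes were 0.43 ± 0.50 in ABA against water (limma adjusted p = 0.718) and 0.47 ± 0.50 in NDGA against water fruit (limma adjusted p = 0.776).

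miR167h-3p, from the other arm, had 8.00 and 4.93 RPM in ABA fruit of day 5 and 9.69 and 13.7 RPM in ABA fruit of day 8. It had 16.4 and 34.3 RPM in NDGA fruit of day 5 and 14.6 and 20.3 RPM in NDGA fruit of day 8. The water libraries had 12.1 and 8.56 RPM at day 0, 17.9 and 14.6 RPM at day 5, and 0 and 17.1 RPM at day 8. The 4 NDGA libraries were all above the 4 ABA libraries, and no comparison passed the test. The water library at 0, day 8 replicate 1, was the only library of the 14 in which miR167f-3p was above 0, at 10.6 RPM, so these 2 names also alternated.

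miR390 was the scarcest of the 4. miR390b-5p was at 0 in every library, and miR390a-5p stayed below the limit of 10 RPM, so that its sum was not in the fit. miR390a-5p had 1.82 and 0.743 RPM in ABA fruit of day 5, 2.09 and 1.77 RPM in ABA fruit of day 8, 0 and 3.14 RPM in NDGA fruit of day 5, and 0.869 and 0 RPM in NDGA fruit of day 8. In water fruit it had 6.31 and 6.11 RPM at day 0, 0.725 and 0 RPM at day 5, and 1.28 and 5.05 RPM at day 8. Both libraries of day 0 were above all others. In a fit of all numbers with no filter, the adjusted p by limma was 0.149 for day 5 against day 0 in water fruit and 0.454 to 1 in the other 8 comparisons.

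**Figure D3:**
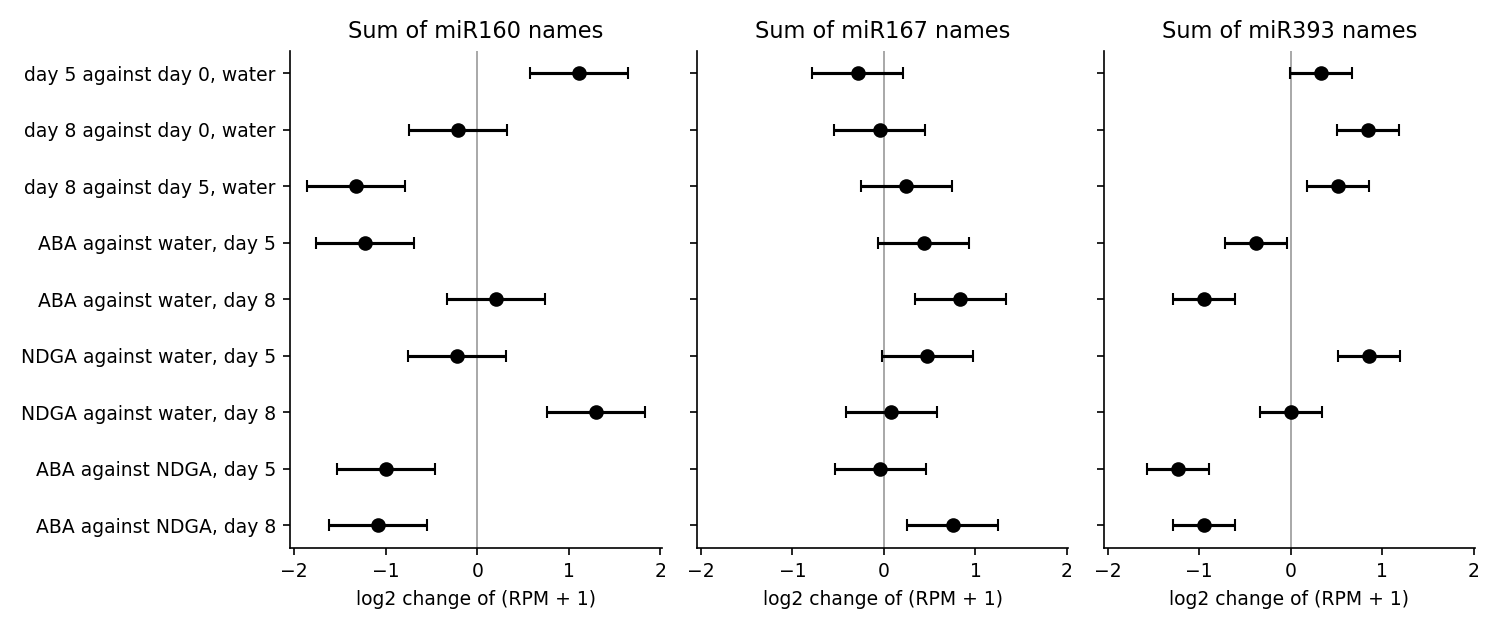
Fitted change of the sums of miR160, miR167 and miR393 names on the log2(RPM + 1) scale (points) with its standard error (bars) in each of the 9 comparisons, with the first-named group over the second. No change passed an adjusted p of 0.05, and the one nearest to it was miR393 in ABA against NDGA fruit at day 5.

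Counted per comparison, 1 of the 6 members was called in ABA against water fruit at day 5 (lower; 10.3% of all 165 names were called), 1 at day 8 (lower; 4.85% of all), 1 in NDGA against water fruit at day 5 (higher; 2.42% of all) and 0 at day 8 (3.03% of all). In ABA against NDGA fruit, 2 were called at day 5 (both lower; 10.3% of all) and 1 at day 8 (lower; 10.3% of all). In water fruit 1 was called at day 5 against day 0 (lower; 12.1% of all), 0 at day 8 against day 0 (1.82% of all) and 1 at day 8 against day 5 (higher; 3.64% of all). All of these calls were of miR393-3p or miR393b-5p. Where limma called 0, unadjusted p-values below 0.05 numbered 2 in each case, and voom called 1 in each.

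Of the 3 sums tested, limma called 0 in each of the 9 comparisons, in which 8.82% (ABA against water, day 5), 4.41% (ABA against water, day 8), 1.47% (NDGA against water, day 5), 5.88% (NDGA against water, day 8), 11% (ABA against NDGA, day 5) and 12.5% (ABA against NDGA, day 8) of the 136 numbers were called. In water fruit these shares were 11.8% at day 5 against day 0, 2.94% at day 8 against day 0 and 1.47% at day 8 against day 5. Unadjusted p-values below 0.05 numbered 1 in each comparison except ABA against water at day 5 and day 5 against day 0 in water fruit, with 0. Voom called 1, in ABA against NDGA at day 5, and 0 in the other 8. The median change of the 3 sums was between -1.002 and 0.47 on the log2 scale, against medians of -0.08 to 0.03 over all numbers.

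Whether a treatment's effect differed between the days was tested with interaction terms. For the ABA effect 2 of the 6 members were called, miR393b-5p and miR393-3p (7.27% of all names), and for the NDGA effect 1, miR393-3p (1.82% of all names). For the sums limma called 0 of 3 in either term (4.41% and 2.21% of all numbers), with 0 at an unadjusted p below 0.05.

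By Pearson correlation of log2 levels over the 14 libraries, the numbers most like miR160 were miR319 (0.81), miR2111 (0.81) and miR3706 (0.79). Most like miR167 were miR159 (0.79), miR7769 (0.73) and miR8575 (0.71), and most like miR390 were miR7769 (0.80), miR5813 (0.76) and miR894 (0.76). Most like miR393 were miR1078 (0.76), miR1105 (0.73) and miR3627 (0.72), each of which was at 0 in at least 1 library. All levels of a library share its depth and scaling total.

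The known targets were looked up among the assembled transcripts by their Swiss-Prot description, since the mRNA libraries (7356752 to 9035037 counted reads) came from the same groups. A list holds forms of one gene, alleles and copies, which share reads, so that single forms are uncertain. Of 99136 transcripts tested by limma on log2(RPKM + 1), 18 matched ARFs of the miR160 group, 23 ARFs of the miR167 group, 6 ARFs of the tasiRNA group and 10 receptors of the TIR1 and AFB group. The ABA and NDGA comparisons with water share the water libraries.

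Of the 9 targets that the authors predicted for miR393-3p, none was described as an auxin receptor, though some had no description. The calls of miR393-3p are therefore not tied to the receptors by these data. None of the 10 transcripts of auxin receptors, the known miR393 targets, was called against water. Their leading transcript, comp115129_c0_seq1, described as a TIR1-like protein, had 8.01 and 10.6 RPKM in ABA fruit of day 5, 7.18 and 6.75 RPKM in ABA fruit of day 8, 10.8 and 9.78 RPKM in NDGA fruit of day 5, and 13.3 and 11.1 RPKM in NDGA fruit of day 8. Water fruit had 13.4 and 17.4 RPKM at day 0, 11.7 and 11.2 RPKM at day 5, and 9.10 and 9.80 RPKM at day 8. The 2 ABA libraries of day 8 were the lowest of the 14. Among the 10 receptor transcripts, this one alone passed in any of the 9 comparisons, lower in ABA than in NDGA fruit at day 8 (log2 change -0.73 ± 0.20, limma adjusted p = 0.0367), a call lost when any one of the 4 libraries of these groups was left out (limma adjusted p = 0.0685 to 0.207). Transcripts described as AFB2 did not reach the limit of 1 RPKM in 2 libraries, and their sum was at most 0.559 RPKM.

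One ARF of the miR160 group was higher in ABA fruit of day 5. This transcript, comp99035_c1_seq1, described by rice ARF18, had 12.1 and 9.97 RPKM in ABA fruit of day 5, 1.53 and 3.05 RPKM in ABA fruit of day 8, 3.36 and 1.20 RPKM in NDGA fruit of day 5, and 2.54 and 1.47 RPKM in NDGA fruit of day 8. The water libraries had 8.06 and 8.03 RPKM at day 0, 2.44 and 1.00 RPKM at day 5, and 6.32 and 5.02 RPKM at day 8. The ABA libraries of day 5 were the highest of the 14 and did not overlap those of water or NDGA fruit of that day. It was higher in ABA than in water fruit at day 5 (log2 change 2.19 ± 0.38, limma adjusted p = 0.00756) and than in NDGA fruit (1.95 ± 0.38, limma adjusted p = 0.00725), and lower at day 5 than at day 0 in water fruit (-1.78 ± 0.38, limma adjusted p = 0.00754).

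The comp99035_c1_seq1 call against water was lost without ABA day 5 replicate 1 or water day 5 replicate 2 (limma adjusted p = 0.0841 to 0.105). That against NDGA was lost without ABA day 5 replicate 1 or NDGA day 5 replicate 2 (limma adjusted p = 0.0696 to 0.0952), and that of day 5 against day 0 without water day 5 replicate 2 (0.0858). Summed over the list, ARFs of the miR160 group had 61.9 and 67.3 RPKM in ABA fruit of day 5, 29.2 and 28.4 RPKM in NDGA fruit of day 5, and 27.7 and 29.0 RPKM in water fruit of day 5. In ABA and NDGA fruit of day 8 the sums were 35.4 and 22.4 RPKM and 24.7 and 25.1 RPKM, and in water fruit they were 55.6 and 56.0 RPKM at day 0 and 39.1 and 39.6 RPKM at day 8. At day 5, the ABA group with the higher sum of these ARFs had the lower mean of the miR160 sum, 14.4 ± 4.67 RPM against 36.2 ± 16.5 RPM in water fruit (SD, n = 2 each), a difference that did not pass the test. In ABA fruit of day 8 the miR160 sum was as low, 15.3 ± 1.54 RPM (SD, n = 2), while the sum of these ARFs was below that of ABA fruit of day 5 in both libraries. The higher ARF sum in ABA fruit of day 5 was not shared by every description. Transcripts described by Arabidopsis ARF17, 8 of those tested, summed to 7.64 and 13.8 RPKM in ABA and 14.8 and 11.7 RPKM in water fruit of day 5. Those described by rice ARF18 summed to 36.9 and 32.4 RPKM in ABA and 8.96 and 10.2 RPKM in water fruit of day 5.

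Of the ARFs of the miR167 group, one was higher in ABA fruit at day 5 and another lower at day 8. comp106865_c0_seq8, described by rice ARF17, had 120 and 110 RPKM in ABA fruit of day 5, 61.4 and 55.1 RPKM in ABA fruit of day 8, and 51.4 to 76.0 RPKM in the 10 NDGA and water libraries. It was higher in ABA than in water fruit at day 5 (log2 change 0.72 ± 0.15, limma adjusted p = 0.0194) and than in NDGA fruit (1.06 ± 0.15, limma adjusted p = 4.89e-04), with no overlap. The first of these calls was lost without either ABA library of day 5 or without water day 5 replicate 1 (limma adjusted p = 0.0754 to 0.187).

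comp97483_c0_seq2, described by rice ARF12, had 83.0 and 80.9 RPKM in ABA fruit of day 5, 52.9 and 49.7 RPKM in ABA fruit of day 8, 80.4 and 91.8 RPKM in NDGA fruit of day 5, and 75.9 and 84.5 RPKM in NDGA fruit of day 8. In water fruit it had 74.9 and 77.7 RPKM at day 0, 74.5 and 78.3 RPKM at day 5, and 86.5 and 86.8 RPKM at day 8. The ABA libraries of day 8 stood below all 12 others. It was lower in ABA than in water fruit at day 8 (-0.75 ± 0.11, limma adjusted p = 3.51e-04) and than in NDGA fruit (-0.63 ± 0.11, limma adjusted p = 0.00132). In ABA fruit of day 8 the miR167 sum had its highest mean, 1243 ± 31.1 RPM, which did not differ from water by the test.

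The tasiRNA group, reached through miR390, was led by ARF3, a factor known from Arabidopsis for organ polarity. Its leading transcript comp110133_c0_seq2 had 73.6 and 77.6 RPKM in ABA fruit of day 5, 36.1 and 33.8 RPKM in ABA fruit of day 8, 89.6 and 81.4 RPKM in NDGA fruit of day 5, and 66.0 and 67.8 RPKM in NDGA fruit of day 8. Water fruit had 113 and 128 RPKM at day 0, 79.6 and 78.9 RPKM at day 5, and 83.7 and 91.3 RPKM at day 8. The ABA libraries of day 8 were the lowest of the 14 and the water libraries of day 0 the highest. It fell in ABA against water fruit at day 8 (log2 change -1.30 ± 0.11, limma adjusted p = 2.8e-06) and against NDGA fruit (-0.92 ± 0.11, limma adjusted p = 6.88e-05). In water fruit it fell at day 5 against day 0 (-0.60 ± 0.11, limma adjusted p = 0.00203) and at day 8 against day 0 (-0.46 ± 0.11, limma adjusted p = 0.0131). The last call was lost without water day 0 replicate 2 or water day 8 replicate 1 (limma adjusted p = 0.105 to 0.119).

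Proteins that act with miR390 on the way to tasiRNAs (AGO7, RDR6, SGS3 and DCL4, 15 transcripts tested) included SGS3, which stabilises the RNA from which tasiRNAs are made. In ABA against water fruit at day 8, 3 of the 15 fell and 0 rose (8.98% of all transcripts lower, 4.3% higher). comp112992_c0_seq3, an SGS3 transcript, had 2.11 and 2.81 RPKM in ABA fruit of day 8, 10.3 and 7.23 RPKM in NDGA fruit of day 8, and 7.54 and 7.34 RPKM in water fruit of day 8. The ABA libraries did not overlap the others. It was lower in ABA than in water fruit (log2 change -1.29 ± 0.26, limma adjusted p = 0.00489) and than in NDGA fruit (-1.49 ± 0.26, limma adjusted p = 0.00204). In fits of the 2 compared groups alone, the SGS3 calls were lost (limma adjusted p = 0.0649 and 0.0893), as were the calls named here for the TIR1-like, ARF18, ARF17 and ARF12 transcripts and for ARF3 in water fruit (limma adjusted p = 0.0538 to 0.222). The 2 calls of ARF3 in ABA fruit of day 8 remained in those fits.

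**Figure D4:**
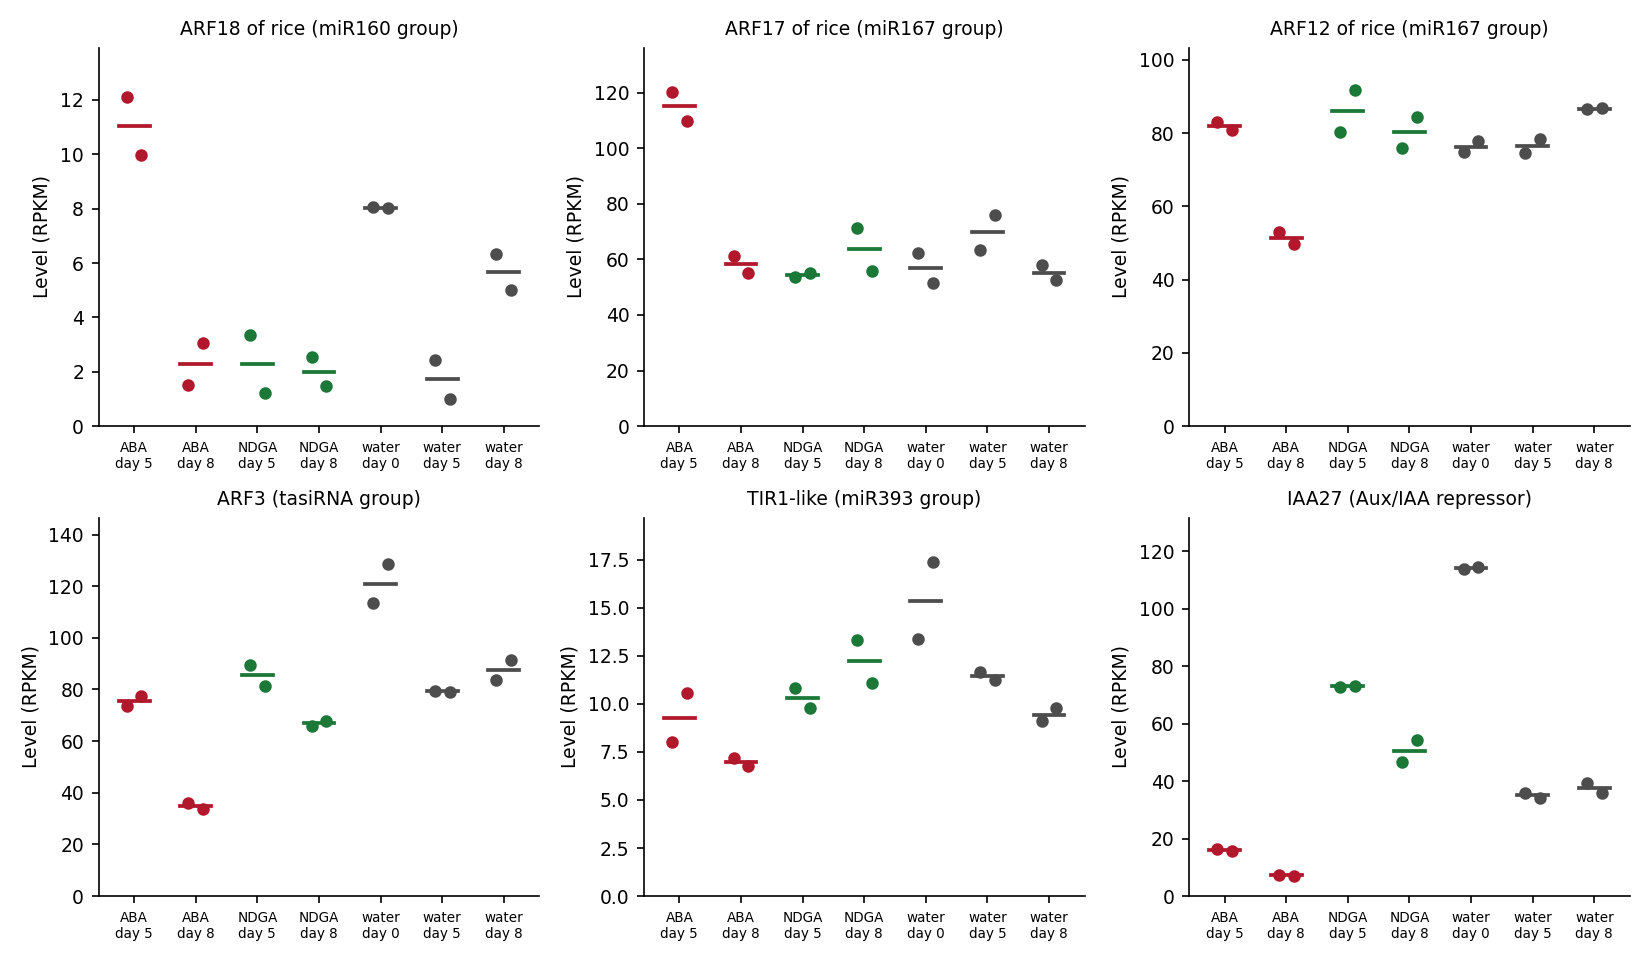
Level (RPKM) of 5 leading target transcripts and of one Aux/IAA transcript in each mRNA library (points, replicate 1 left) with the group mean (lines), for ABA, NDGA and water fruit by day. In ABA fruit the ARF18 and ARF17 transcripts were highest at day 5, and the ARF12, ARF3 and IAA27 transcripts were lowest at day 8.

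In ABA against water fruit at day 5, 1.21% of all transcripts were called higher and 0.956% lower. There 1 of 18 ARFs of the miR160 group and 1 of 23 of the miR167 group rose and none of these lists fell, and 0 of 6 ARFs of the tasiRNA group and 0 of 10 receptors were called. At day 8, where 4.3% of all rose and 8.98% fell, 2 of 23 ARFs of the miR167 group and 3 of 6 of the tasiRNA group fell, and 0 of the other 2 lists were called. The median change at day 8 was -0.25, -0.36 and -1.12 for ARFs of the miR160, miR167 and tasiRNA groups and 0.02 for the receptors, against -0.20 over all transcripts. In NDGA against water fruit, limma called 0 of the 57 transcripts of the 4 lists at day 5 (1.23% of all higher and 0.802% lower), with 1 at an unadjusted p below 0.05 and 0 by voom. At day 8 it also called 0 (0.705% of all higher and 1.48% lower), with 6 at an unadjusted p below 0.05 and 1 by voom.

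In ABA against NDGA fruit, 3 of 18 ARFs of the miR160 group and 2 of 23 of the miR167 group rose at day 5 (3.05% of all higher, 3.4% lower), and 2 of the miR167 group, 2 of 6 of the tasiRNA group and 1 of 10 receptors fell at day 8 (3.95% of all higher, 7.07% lower). In water fruit at day 5 against day 0 (4.98% of all higher, 7.9% lower), 4 of 18 ARFs of the miR160 group and 2 of 6 of the tasiRNA group fell and 1 of 23 of the miR167 group rose. At day 8 against day 0 (4.87% of all higher, 5.68% lower), 1 of the miR167 group rose and 1 of the tasiRNA group fell. At day 8 against day 5 limma called 0 of the 4 lists (2.89% of all higher, 1.78% lower), with 5 at an unadjusted p below 0.05 and 0 by voom. The achene markers given above differed between days 0, 5 and 8 in water fruit and between treated and water fruit of day 5. The receptacle markers were lower in ABA than in water fruit of day 8 and higher in NDGA than in water fruit of day 5. The part of either list in these counts was not tested.

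Downstream, the Aux/IAA repressors, which bind ARFs and are degraded when the receptors sense auxin, were the pathway list with the most calls. Of 34 tested, 18 fell and 2 rose at day 5 against day 0 in water fruit, and 18 fell and 0 rose at day 8 against day 0, with medians of -1.14 and -1.12 on the log2 scale against -0.03 and 0.00 over all transcripts. Over all transcripts 7.9% fell and 4.98% rose at day 5, and 5.68% fell and 4.87% rose at day 8. In ABA against water fruit 3 Aux/IAA transcripts fell and 0 rose at day 5 (0.956% of all lower, 1.21% higher), and 9 fell and 2 rose at day 8 (8.98% of all lower, 4.3% higher). In NDGA against water fruit 7 rose and 0 fell at day 5 (1.23% of all higher, 0.802% lower), and 1 rose and 1 fell at day 8 (0.705% of all higher, 1.48% lower). Small auxin-induced proteins, SAURs among them, had fewer calls in total, but on a shorter list of 15 tested. In ABA against water fruit at day 8, 5 of the 15 rose and 5 fell (4.3% of all higher, 8.98% lower). In ABA against NDGA fruit at day 5, 6 of the 15 rose and 0 fell (3.05% of all higher, 3.4% lower). In that comparison 1 Aux/IAA transcript rose and 8 fell.

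comp119555_c1_seq1, described as IAA27, had 16.2 and 15.6 RPKM in ABA fruit of day 5, 7.44 and 6.89 RPKM in ABA fruit of day 8, 72.9 and 73.1 RPKM in NDGA fruit of day 5, and 46.9 and 54.3 RPKM in NDGA fruit of day 8. The water libraries had 114 RPKM in both libraries at day 0, 36.0 and 34.3 RPKM at day 5, and 39.2 and 35.9 RPKM at day 8. At both days it was lowest in ABA and highest in NDGA fruit, with no overlap. The changes of this transcript against water at day 5 were -1.09 ± 0.13 in ABA (limma adjusted p = 2.45e-04) and 1.03 ± 0.13 in NDGA fruit (limma adjusted p = 4.24e-04). At day 8 they were -2.24 ± 0.13 in ABA (limma adjusted p = 7.16e-08) and 0.42 ± 0.13 in NDGA fruit (limma adjusted p = 0.128). Both calls of day 5 were lost in fits of the 2 groups alone (limma adjusted p = 0.131 and 0.127). Another transcript described as IAA27, comp110742_c0_seq1, was called at both days, lower in ABA and higher in NDGA than in water fruit. In NDGA fruit of day 8 its change was 0.66 ± 0.15 (limma adjusted p = 0.0378). With 1 library left out, its NDGA call was lost in 10 of 14 fits at day 5 and in 8 of 14 at day 8. Its NDGA call of day 5 was also lost with no filter (limma adjusted p = 0.0513) and when rescaled to a common sum (limma adjusted p = 0.059). Its NDGA calls were lost in fits of the 2 groups alone (limma adjusted p = 0.218 and 0.168), as was its ABA call of day 5 (0.131). The most abundant Aux/IAA transcript, comp100843_c0_seq1, described as IAA17, did not share this pattern. Its means at day 5 were 173 RPKM in ABA, 158 RPKM in NDGA and 168 RPKM in water fruit. At day 8 they were 122, 125 and 123 RPKM. It was not called in ABA or NDGA against water fruit at either day (limma adjusted p = 0.841 to 0.987).

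GH3 synthetases join auxin to amino acids, and carriers move it between cells. Of 22 GH3 transcripts, 6 fell and 1 rose at day 5 against day 0 in water fruit (7.9% of all lower, 4.98% higher), and 6 fell and 0 rose at day 8 against day 0 (5.68% of all lower, 4.87% higher). In NDGA against water fruit 3 rose and 1 fell at day 5 (1.23% of all higher, 0.802% lower), and 1 rose and 0 fell at day 8 (0.705% of all higher, 1.48% lower). In ABA against water fruit 1 rose at day 8, a share near the 4.3% of all transcripts. comp110861_c0_seq4, described by rice GH3.5, had 29.5 and 29.8 RPKM in ABA fruit of day 8, 19.0 and 15.1 RPKM in NDGA fruit of day 8, and 8.08 and 7.51 RPKM in water fruit of day 8. The 3 groups did not overlap, and ABA was higher than water (log2 change 1.802 ± 0.19, limma adjusted p = 3.24e-05). At day 5 the same transcript had 49.4 and 37.8 RPKM in ABA, 12.3 and 9.70 RPKM in NDGA and 31.9 and 26.9 RPKM in water fruit. There NDGA was lower than water (-1.35 ± 0.19, limma adjusted p = 0.00168), a call lost in a fit of the 2 groups alone (0.152), and ABA against water was not called (0.55 ± 0.19, limma adjusted p = 0.22). At day 8 NDGA was higher than water (1.03 ± 0.19, limma adjusted p = 0.0125), a call lost without either water library or NDGA replicate 1 of that day (0.0681 to 0.145). Of 35 carrier transcripts, 10 fell at day 5 (7.9% of all lower) and 13 at day 8 (5.68% of all lower) against day 0 in water fruit, with 0 rising. In ABA against water fruit 4 fell and 0 rose at day 8, where 8.98% of all transcripts fell. In NDGA against water fruit 1 rose and 1 fell at day 5 (1.23% of all higher, 0.802% lower).

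Of these names, the authors' deposited table of 67 differing known miRNAs listed miR393-3p, as down in ABA against water fruit at day 8 and with no call in the 5 other comparisons it covers. It gave 9 predicted targets for miR393-3p, 4 of which are forms described as an RNA-directed DNA polymerase homolog and 5 of which had no description. One of the 9, comp108282_c0_seq3, was abundant enough to be tested, and it was not called in any of the 9 comparisons (lowest adjusted p by limma 0.0512, in ABA against water fruit at day 8, log2 change -1.36 ± 0.42).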

How the data were processed

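Small RNA and mRNA were sequenced from the same 7 groups, with 2 libraries per group and assay. The authors deposited known miRNA levels as RPM, per the file headers, which gave whole reads (tolerance 0.1 reads) at the clean read counts in 12 libraries and at smaller totals in 2. The clean read counts were taken from the authors' deposited summary table. Transcript levels were deposited as RPKM per assembled transcript, per the file headers. The sources used here name no aligner, miRNA database or build (not given in them), and 0 columns of per-sample values went unused.

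Names were tested at 10 RPM or more in 2 libraries, and sums per number likewise, on log2(RPM + 1). Transcripts at 1 RPKM or more in 2 libraries were tested on log2(RPKM + 1). Log2 changes are on these scales, which understate changes of low features. limma 3.58.1 (R 4.3.3) was fitted to all 7 groups with no covariate. P-values were adjusted by Benjamini-Hochberg over all features within each of 9 comparisons and 2 interaction terms, and adjusted p below 0.05 was a call. The scripts were tested on simulated data. Wilson intervals (95%) cover counting error only.

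The members, lists and tests were chosen with earlier results of these data known. For each number the most abundant name and every called member were named. In each transcript list the rule took the most abundant transcript, and per comparison the member of smallest adjusted p with a mean of 5 RPKM or more. Of these, the ones nearest the miRNAs are described. Lists were matched by Swiss-Prot description, and forms of one assembly component share reads. Alternatives covered pseudocounts, filters, scalings, left-out libraries, the groups in the fit, a replicate block, component sums and voom.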

Additional observations from a re-analysis of the deposited data

Results flagged for a closer look

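For 3 results the effect of a treatment differed between day 5 and day 8 by an interaction term of the limma fit. Each adjusted p is over 165 names.

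The ABA effect on miR393-3p differed between the days (limma adjusted p = 0.00169). At day 5 it was listed at 0 in all ABA and water libraries, and at day 8 it was at 0 in both ABA libraries and at 21.7 and 27.3 RPM in water fruit. A name at 0 in water fruit cannot be lowered further, and the term equals the difference of day 8. It therefore cannot show whether a lowering by ABA depended on the day. The NDGA effect on miR393-3p also differed (limma adjusted p = 0.00234), with 19.4 and 23.9 RPM in NDGA fruit and 0 in both water libraries at day 5, and with 8.83 and 23.9 RPM in NDGA and 21.7 and 27.3 RPM in water fruit at day 8. Both terms stayed past the threshold in 14 of 14 fits with 1 library left out and under 9 of 9 other settings. Leaving out 1 library of a group at 0 in both kept that group at 0 with no spread. The fits with 1 library left out are thus a weak check, and the p-values of these terms may be too small. Fits of the compared groups alone, which lost some calls of miR393-3p, were not run for these terms. The filters of 50 RPM and of names above 0 in all libraries left the name out. Both terms share the water libraries.

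The ABA effect on miR393b-5p differed between the days (limma adjusted p = 0.0368). At day 5 it was at 0 in both ABA libraries and at 20.5 and 19.8 RPM in water fruit. At day 8 it was at 15.6 RPM and 0 in ABA fruit and at 0 in both water libraries, so that 1 ABA library carried the difference of that day. In each library where miR393b-5p was at 0, miR393a was above 0. The call was lost in 8 of 14 fits with 1 library left out, each of the 6 water libraries or either ABA library of day 5 (limma adjusted p = 0.0603 to 0.161). It was also lost with no filter (0.0595), without the 2 libraries of smaller totals (0.0995) and with these rescaled (0.0841).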

How the results depend on the processing

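Sums are log2 changes here, and targets are the 57 transcripts of the receptor and ARF lists. The planned edgeR test was not run, since the values are not counts. Rescaling the 2 libraries to their clean reads and voom for miRNAs were chosen after seeing the data. The causes of the changes below were not tested, except that the filters of 50 RPM and of names above 0 in all libraries leave out every miR393 name, so that 0 members were called in all 7 comparisons that had calls. Over the 9 comparisons the median change of all names was -0.48 to 0.66 with a common sum, 0 to 0.12 with median ratio and -0.23 to 0.76 with the 2 libraries rescaled, against -0.01 to 0.07 as deposited.

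Names called in ABA against water at day 5 (1) numbered 0 with no filter, without the 2 libraries and with them rescaled, 2 with quantile, median-ratio, voom or the compared groups alone, and 3 with a common sum. With the compared groups alone they numbered 2 at day 8 against day 0, 3 at day 8 against day 5, 0 in NDGA against water at day 5, 2 at day 8, and 0 in ABA against NDGA at day 8. Voom called 1 at day 8 against day 0, 3 at day 8 against day 5 and 1 in NDGA against water at day 8. A common sum gave 2 at day 5 against day 0 and 1 in NDGA against water at day 8, and leaving out the 2 libraries gave 1 there and 1 in ABA against NDGA at day 5.

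One sum was called in ABA against NDGA at day 5 with a pseudocount of 5, voom or without the 2 libraries, and with a common sum 1 each at day 5 against day 0, day 8 against day 5 and in ABA against water at day 8. The miR393 sum in NDGA against water at day 8 (0.00) turned to -0.54 with quantile scaling, -0.96 with a common sum, -0.25 with median ratio, -0.22 with the highest name, -0.36 without the 2 libraries, -0.87 with them rescaled and -0.089 with voom. At day 5 against day 0 it turned to -0.77 (common sum), -0.20 (median ratio) and -0.23 (rescaled), and in ABA against water at day 5 to 0.45 (common sum) and 0.18 (rescaled). The miR160 sum turned to 0.13 at day 8 against day 0 (quantile), to -0.91 (quantile) and -0.23 (common sum) in ABA against water at day 8, and to 0.095 (common sum), 0.24 (without the 2) and 0.35 (rescaled) in NDGA against water at day 5. The miR167 sum turned in NDGA against water at day 8 to -0.91 (common sum), -0.17 (median ratio), -0.15 (without the 2) and -0.83 (rescaled), and in ABA against NDGA at day 5 to 0.50 (common sum) and 0.19 (median ratio). None of these sums had passed the test.

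Target calls changed most with the compared groups alone: 0 at day 5 against day 0, 0 at day 8 against day 0, 0 in ABA against water at day 5, 1 at day 8, 0 in ABA against NDGA at day 5 and 1 at day 8, against 7, 2, 2, 5, 5 and 5. Voom called 6 at day 8 against day 0, 8 in ABA and 1 in NDGA against water at day 8. A 5 RPKM filter gave 4 and 1 at day 8 against days 0 and 5, 5 and 8 in ABA against water at days 5 and 8, and 1 in NDGA against water at day 8. Component sums gave 10 in ABA against water at day 8, 1 in NDGA against water at day 5 and 11 in ABA against NDGA at day 8, and quantile scaling 3 in the last.

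With 1 library left out, names called ranged over 0 to 2 at day 8 against day 0, 1 to 3 at day 8 against day 5, 0 to 2 and 1 to 3 in ABA against water at days 5 and 8, 0 to 2 in NDGA against water at day 8, 1 to 3 in ABA against NDGA at both days and 1 to 3 in both interaction terms. Sums called ranged over 0 to 1 in ABA against NDGA at both days. The miR160 sum ranged over -0.45 to 0.032 at day 8 against day 0, -0.037 to 0.45 in ABA against water at day 8 and -0.75 to 0.30 in NDGA against water at day 5. The miR167 sum ranged over -0.55 to 0.46 and -0.26 to 0.74 at day 8 against days 0 and 5, -0.13 to 1.08 and -0.42 to 0.58 in NDGA against water at days 5 and 8, and -0.65 to 0.57 in ABA against NDGA at day 5. The miR393 sum in NDGA against water at day 8 ranged over -0.36 to 0.37. Targets called ranged over 2 to 7 and 0 to 3 at days 5 and 8 against day 0, 0 to 1 at day 8 against day 5, 0 to 3 and 3 to 6 in ABA against water at days 5 and 8, and 2 to 6 and 3 to 5 in ABA against NDGA at days 5 and 8.

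The replicate numbers were not used to pair the samples. Deviations of replicate 1 from its group mean were correlated between groups. The correlations were -0.32 to 0.55 (small RNA, 8 of 21 pairs over 0.1) and 0.05 to 0.10 (mRNA, 1 of 21), all positive in mRNA. Whether same-numbered libraries belong together cannot be told from these values. With the replicate block 1 target was called at day 8 against day 5, and counts of names and sums did not change in any comparison.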
